A study of Mus musculus with 6 samples.

Results

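The 10 genes of the bone morphogenetic protein (BMP) system described here were measured in mouse articular cartilage at 2 and 18 months of age. They were chosen by name, with earlier results of these data known. They are 4 ligands (Bmp2, Bmp4, Bmp6 and Bmp7), 3 receptors (Bmpr1a, Bmpr1b and Bmpr2) and 3 secreted antagonists (Grem1, Nog and Chrdl2). All 10 were found by symbol among the 33971 genes of the table. The animals carry the wild-type genotype, and each age holds 3 libraries of polyadenylated RNA prepared with strand marking and molecular identifiers and read from both ends. The study asked how cartilage changes with age, and neither age received any treatment named for these libraries. The labels state neither the joint surface the cartilage came from nor whether a library is 1 animal or a pool, so the p-values measure only the spread between these libraries.

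The libraries held 48171507 to 59085179 counts, and those of the same age differed by more than counting noise. Xist, transcribed from the inactivated X chromosome, had between 88239 and 102417 counts at 2 months and from 11 to 30 at 18 months, whereas 4 Y-linked genes together had 33 to 59 and 12777 to 13492 counts. By these counts the 2-month libraries read as female and the 18-month libraries as male. The methods of the study describe male mice, which the 2-month counts do not match, and the labels give no sex. Sex and age therefore cannot be told apart in any difference given here. The tissue label was checked against 16 chondrocyte markers, which took 4.57% to 7.07% of all counts at 2 months and 0.0633% to 0.169% at 18 months. All 16, of which Chad was the most abundant, were called lower, with a median log2 fold change of −6.78, and Epyc was at or below 3 counts in every 18-month library. The 10 neutrophil markers took 0.00127% to 0.364% of counts at 2 months, the highest in replicate 2, and 4.08% to 4.41% at 18 months. The chondrocyte signature of the 18-month libraries was therefore low, and blood-cell transcripts were abundant in them. These values accompany every age difference given here, and their part in the results was not tested. In bulk tissue, fewer cells of a type and less RNA per cell cannot be told apart.

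BMPs are secreted dimers of the transforming growth factor beta superfamily that bind a complex of type I and type II serine/threonine kinase receptors. The type II receptor phosphorylates the type I receptor, which in turn phosphorylates SMAD1, SMAD5 and SMAD9, and these enter the nucleus with SMAD4 and switch on genes such as those of the Id family. Outside the cell, noggin, gremlin 1 and chordin-like proteins hold BMPs away from their receptors. In growing cartilage the system is known for driving condensation, chondrocyte differentiation and matrix production, and in adult cartilage for a part in its maintenance.

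Promoter sequences of 300 bases, from 250 bases before to 50 bases after the start site, were available for 6 of the 10 genes from RefSeq on GRCm38.p6. Those of Grem1 and Bmpr1a are shown because these were the most abundant members and both were lower at 18 months, and that of Bmp4 because it was the member without a call. Each reads 5′ to 3′ on the strand of its gene, and capitals mark GGGCGG, the letters of a GC box, and GGCGCC, each searched on both strands, with the reverse complement of GGGCGG appearing as CCGCCC. In these 3 windows no matches overlapped.
Grem1, chr2:113758599-113758898, minus strand: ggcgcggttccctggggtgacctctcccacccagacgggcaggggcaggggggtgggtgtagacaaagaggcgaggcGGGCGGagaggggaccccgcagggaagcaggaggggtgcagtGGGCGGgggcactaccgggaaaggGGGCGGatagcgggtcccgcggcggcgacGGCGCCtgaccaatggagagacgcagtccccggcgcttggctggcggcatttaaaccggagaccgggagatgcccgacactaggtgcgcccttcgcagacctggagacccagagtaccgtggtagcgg
Bmpr1a, chr14:34502497-34502796, minus strand: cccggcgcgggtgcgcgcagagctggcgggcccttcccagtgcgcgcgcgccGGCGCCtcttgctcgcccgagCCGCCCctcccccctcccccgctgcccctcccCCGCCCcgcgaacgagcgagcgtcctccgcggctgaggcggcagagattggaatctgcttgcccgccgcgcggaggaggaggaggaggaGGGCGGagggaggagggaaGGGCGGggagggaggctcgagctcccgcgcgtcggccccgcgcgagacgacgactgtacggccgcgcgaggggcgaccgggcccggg
Bmp4, chr14:46390620-46390919, minus strand: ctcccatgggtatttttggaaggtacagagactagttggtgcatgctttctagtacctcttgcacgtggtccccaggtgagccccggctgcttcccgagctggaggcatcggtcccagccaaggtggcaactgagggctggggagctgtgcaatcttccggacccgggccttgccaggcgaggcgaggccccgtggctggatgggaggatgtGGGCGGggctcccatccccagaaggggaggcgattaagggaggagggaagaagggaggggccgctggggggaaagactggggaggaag

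The Bmpr1a window had a GC content of 79.33%, at percentile 98.8 of the 32851 mouse promoters in the same table, and held 48 CpG dinucleotides and 4 matches to GGGCGG. The Grem1 window had a GC content of 70.67% with 28 CpG dinucleotides and 3 matches to GGGCGG. The Bmp4 window had a GC content of 64% with 12 CpG dinucleotides and 1 match. Over all promoters the median was 52.67% GC with 7 CpG dinucleotides, and 35.66% of windows held GGGCGG on either strand. GGCGCC occurred once each in Grem1 and Bmpr1a and not in the Bmp4 window, against 11.87% of all promoters. The Bmp6 and Bmpr2 windows were also above the median, at 69.33% and 59.33% GC. Bmpr1b, the least abundant member, had 3 listed starts at 48.33%, 53% and 55.67% GC with 5 to 6 CpG dinucleotides and no match to GGGCGG. These matches describe letters in the windows and are not shown to be binding sites.

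Whole genes were counted, at the positions the table gives on GRCm38. The ligand genes lie at chr2:133552159-133562885 (Bmp2, plus strand), chr14:46383520-46390669 (Bmp4, minus), chr13:38345107-38500302 (Bmp6, plus) and chr2:172868012-172940321 (Bmp7, minus). The receptor genes lie at chr14:34410734-34502687 (Bmpr1a, minus), chr3:141837136-142169213 (Bmpr1b, minus) and chr1:59763400-59879014 (Bmpr2, plus), and the antagonist genes at chr2:113746164-113758646 (Grem1, minus), chr11:89300638-89302332 (Nog, minus) and chr7:100006172-100034726 (Chrdl2, plus). Nog has 1 exon and Grem1 2, while Bmpr2 has 13. In GENCODE M21 the gene bodies of 4 members overlap other annotated genes. Bmp6 overlaps Txndc5 and 4930579J19Rik on the other strand, Bmp4 overlaps Gm15217 and Gm15222 on the other strand, Bmpr1a overlaps Gm17110 on the other strand, and Bmpr2 overlaps Gm38125 on its own strand. Whether the counting used strand is not given in the sources used here, so the counts of these 4 genes may hold reads of their neighbours.

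Of the 10 members, 9 were lower at 18 months and 0 were higher, while Bmp4 did not pass the test. A gene was called when edgeR's quasi-likelihood test gave a Benjamini-Hochberg adjusted p-value under 0.05 over the 20397 genes tested and a log2 fold change of 18-month against 2-month cartilage above 1 or below −1. By the same rule 21.3% of all genes tested were called lower, and all 10 members passed the filter on low counts. The members were chosen with earlier results known, so this background is no test of them as a set. No member was higher at an unadjusted p-value under 0.05, and DESeq2 and limma called 0 members higher as well. The median log2 fold change of the members was −2.22, against −0.02 over all genes tested. In 9 of the 10 members, those called, every 18-month library lay below every 2-month library in FPKM (fragments scaled by transcript length and library size). The calls and this separation rest on the same libraries, so the separation adds no further support. The same separation was seen for 32.8% of all genes tested. The reverse, with every aged library above every young one, was the case for 0 members and for 35.6% of all genes tested. With 3 libraries against 3, an exact permutation test of a single gene cannot give a p-value below 0.1.

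**Figure D1:**
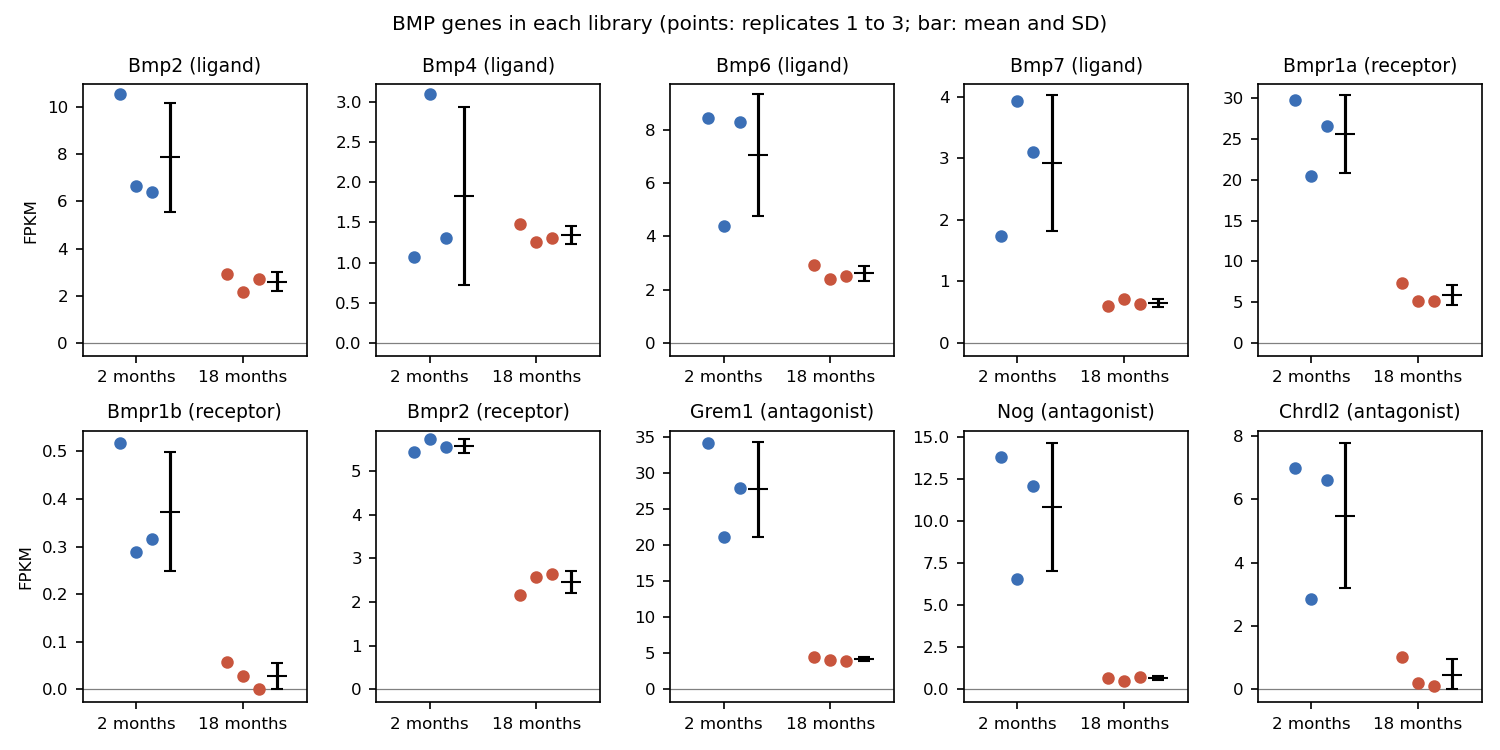
FPKM of the 10 BMP genes in each library, with a separate linear scale for each gene; points are replicates 1 to 3 from left to right and bars show the mean and SD of each age (n = 3), cut at 0. The 2-month libraries lie above the 18-month libraries in 9 genes, and only in Bmp4 do the ages overlap.

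Among the ligands, Bmp2, an inducer of bone and cartilage formation, had FPKM values of 10.5, 6.63 and 6.41 in 2-month replicates 1 to 3 and of 2.94, 2.15 and 2.70 in the 18-month replicates. Replicate 1 was the highest of the young libraries, and the ages did not overlap. Bmp2 was 3.21-fold lower at 18 months (log2 fold change −1.68, SE 0.26, adjusted p = 0.00440). Bmp6, a ligand also known for its part in iron regulation, gave 8.46, 4.41 and 8.29 FPKM at 2 months and 2.93, 2.41 and 2.499 at 18 months. Its lowest 2-month library, replicate 2, was still above all aged libraries. The fall was 2.89-fold (log2 fold change −1.53, SE 0.31, adjusted p = 0.00965).

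Bmp7, a ligand with known anabolic action on chondrocytes, reached 1.73, 3.92 and 3.10 FPKM at 2 months and 0.604, 0.720 and 0.629 at 18 months. Here 2-month replicate 2 was the highest library, the opposite of its place for Bmp6, and the ages were separate. Bmp7 fell 4.67-fold (log2 fold change −2.22, SE 0.32, adjusted p = 0.00342), the largest fold among these 4 ligands. Bmp4, a ligand needed for early mesoderm and for skeletal patterning, had 1.07, 3.10 and 1.31 FPKM at 2 months and 1.48, 1.25 and 1.304 at 18 months. Only 2-month replicate 2 stood above the others, and the remaining 5 libraries overlapped. The Bmp4 log2 fold change was −0.49 (SE 0.41, 95% interval −1.50 to 0.51, adjusted p = 0.347), and without 2-month replicate 2 it was 0.07 (adjusted p = 0.830). The interval includes no change as well as falls larger than the fold limit.

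The type I receptor Bmpr1a was the most abundant of the receptors. Its FPKM values were 29.8, 20.5 and 26.6 at 2 months and 7.34, 5.18 and 5.15 at 18 months. The lowest young library was well above the highest aged one. Bmpr1a fell 4.64-fold (log2 fold change −2.21, SE 0.24, adjusted p = 0.00172). Bmpr2, the type II receptor that is selective for BMPs, varied least of the members at 2 months, with 5.44, 5.74 and 5.55 FPKM at 2 months against 2.16, 2.57 and 2.64 at 18 months. It had the smallest fall of the called members, 2.39-fold (log2 fold change −1.26, SE 0.12, adjusted p = 0.00150).

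Bmpr1b, the other type I receptor, known for its role in digit cartilage, was scarce at both ages. It had 170, 101 and 106 counts at 2 months and 23, 11 and 0 counts at 18 months, or 0.517, 0.288 and 0.316 FPKM against 0.0570, 0.0273 and 0. No aged library approached a young one, but the aged libraries differed strongly among themselves. The log2 fold change was −3.78 (SE 1.13, 95% interval −6.56 to −1.001, adjusted p = 0.0352), and the call was lost when any of 4 of the 6 libraries was left out, with adjusted p-values of 0.0518 and 0.114 when the library was 18-month replicate 1 or 2 and of 0.0770 and 0.0759 when it was 2-month replicate 1 or 3.

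Of the 7 members that kept their call in every fit with 1 library left out, the antagonists Nog and Grem1 had the largest falls. Nog encodes noggin, a diffusible BMP trap that is needed for joint formation. Its FPKM values were 13.8, 6.54 and 12.1 at 2 months and 0.708, 0.519 and 0.754 at 18 months. The lowest young library, replicate 2, was still far above the aged range. Nog was 17.4-fold lower at 18 months (log2 fold change −4.12, SE 0.40, adjusted p = 0.00144).

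Grem1, encoding gremlin 1, which binds BMP2, BMP4 and BMP7, was the most abundant member at 2 months. It gave 34.2, 21.1 and 27.9 FPKM at 2 months and 4.57, 4.10 and 3.98 at 18 months. The aged libraries were close together and the young ones were all higher. The fall was 7.01-fold (log2 fold change −2.81, SE 0.23, adjusted p = 0.00114). Chrdl2, a chordin-like antagonist expressed in cartilage, gave 6.97, 2.84 and 6.61 FPKM at 2 months and 1.03, 0.208 and 0.125 at 18 months. Replicate 1 stood apart among the aged libraries, with 255 counts against 49 and 30. The Chrdl2 log2 fold change was −3.70 (SE 0.92, 95% interval −5.96 to −1.43, adjusted p = 0.0194). Leaving out 2-month replicate 3 or 18-month replicate 2 ended the call, at adjusted p = 0.0550 and 0.0667.

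Because FPKM is scaled by length, the levels of different members can be set side by side. At 2 months the order of mean FPKM ran Grem1 27.7 ± 6.56 (SD, n = 3), Bmpr1a 25.6 ± 4.77, Nog 10.8 ± 3.82, Bmp2 7.86 ± 2.32, Bmp6 7.05 ± 2.29, Bmpr2 5.58 ± 0.151, Chrdl2 5.47 ± 2.29, Bmp7 2.92 ± 1.11, Bmp4 1.83 ± 1.11 and Bmpr1b 0.373 ± 0.125. Among neighbours in that order only Bmpr1a and Nog, and Bmp4 and Bmpr1b, had ranges that did not overlap. At 18 months the order ran Bmpr1a 5.89 ± 1.25, Grem1 4.21 ± 0.312, Bmp6 2.61 ± 0.276, Bmp2 2.60 ± 0.405, Bmpr2 2.46 ± 0.258, Bmp4 1.34 ± 0.116, Nog 0.660 ± 0.125, Bmp7 0.651 ± 0.0610, Chrdl2 0.454 ± 0.4996 and Bmpr1b 0.0281 ± 0.0285. Here the neighbours Bmp6 and Bmp2, Bmp2 and Bmpr2, Nog and Bmp7, and Bmp7 and Chrdl2 overlapped, and the others did not. Nog moved from rank 3 to rank 7, and Bmp4 from rank 9 to rank 6.

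Summed over each role, the 4 ligands together had 21.8, 18.1 and 19.1 FPKM at 2 months and 7.95, 6.53 and 7.14 at 18 months. The 3 receptors gave 35.8, 26.5 and 32.5 FPKM at 2 months and 9.56, 7.78 and 7.78 at 18 months. For the 3 antagonists the sums were 55.01, 30.5 and 46.7 FPKM at 2 months and 6.30, 4.82 and 4.86 at 18 months. Among these sums that of the 3 antagonists was the highest in each young library and the lowest in each aged one. The ratio of ligand to antagonist FPKM within a library was 0.396, 0.593 and 0.410 at 2 months and 1.26, 1.35 and 1.47 at 18 months. All 2-month ratios were under 1 and all 18-month ratios over 1, with means of 0.466 ± 0.110 and 1.36 ± 0.105 (SD, n = 3). This order and this ratio hold for the members alone. Wider sums took in the 14 ligands and the 15 antagonists and modulators, members included, of the lists used here. These lists were chosen by name, with earlier results of these data known, and are not shown to be complete. Bmp3 counts in them as a ligand, and Bambi and Sost as antagonists or modulators. The listed ligands had 66.4 ± 7.49 FPKM at 2 months and 12.9 ± 1.27 at 18 months (SD, n = 3). The listed antagonists and modulators had 249.5 ± 37.0 and 78.8 ± 29.1, so that over these lists the antagonist sum was the higher at both ages. Over these lists the ratio was 0.261, 0.279 and 0.260 at 2 months and 0.126, 0.185 and 0.208 at 18 months, lower in every aged library. Without Sost, which encodes the osteocyte product sclerostin, averaged 44.5 FPKM at 18 months and was singled out after its values were seen, the ratio was 0.368 ± 0.0223 and 0.382 ± 0.0548, with overlapping ages. Bmp8a and Twsg1, described with the other pathway genes, are among the abundant genes that the member sums leave out. The ratios compare transcript levels and were not tested.

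**Figure D2:**
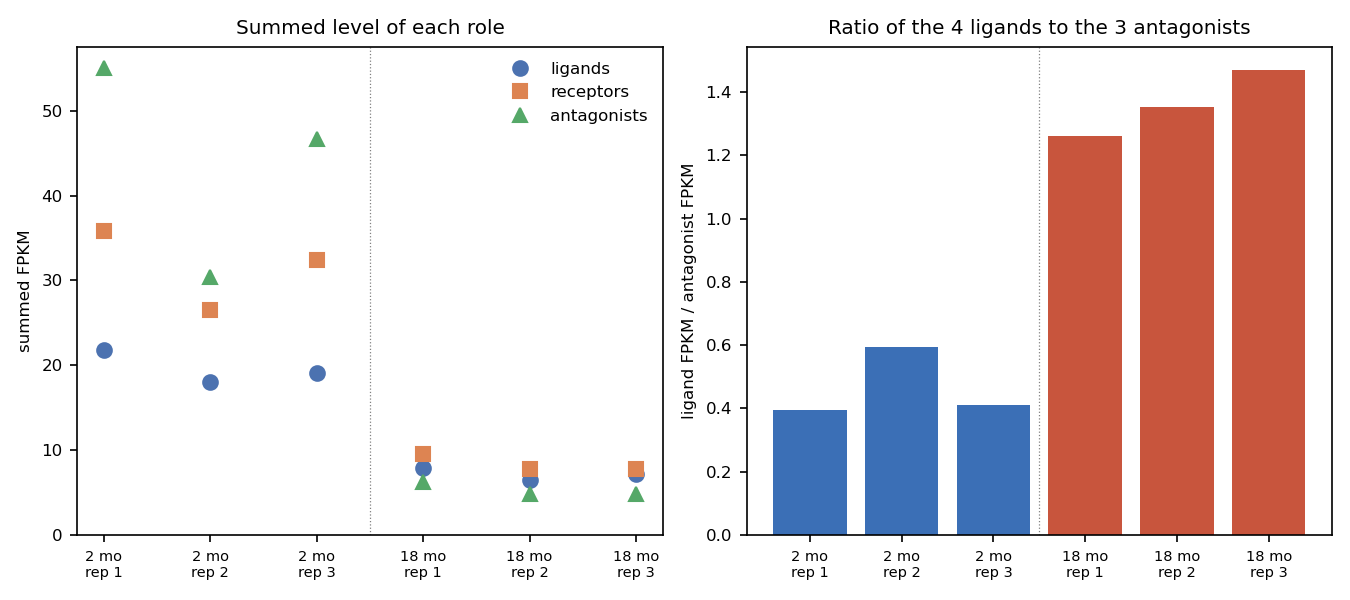
Left, FPKM summed over the 4 ligands (circles), 3 receptors (squares) and 3 antagonists (triangles) in each of the 6 libraries; right, the ratio of ligand to antagonist FPKM in the same libraries, as bars from 0. Over these members the antagonist sum is the highest at 2 months and the lowest at 18 months, and the ratio runs from 0.396 to 0.593 at 2 months and from 1.26 to 1.47 at 18 months.

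The make-up of each role, which does not depend on scaling between libraries, was set side by side for the ages. Bmp4 made up 4.93%, 17.2% and 6.85% of ligand FPKM at 2 months and 18.6%, 19.2% and 18.3% at 18 months. Its share was higher in every aged library, though the gap to 2-month replicate 2 was narrow. Bmp2 and Bmp6 overlapped between the ages, with mean shares of 39.5% and 35.5% at 2 months and 35.9% and 36.3% at 18 months. Bmp7 overlapped too, at 15.3% ± 6.94 and 9.15% ± 1.73 (SD, n = 3). Among receptors the Bmpr1a share was 80.8% ± 3.20 at 2 months and 69.8% ± 6.02 at 18 months, while that of Bmpr2 was 18.0% ± 3.33 and 29.9% ± 6.28, each without overlap. Both gaps were narrow. Bmpr1a took 77.2% in 2-month replicate 2 and 76.8% in 18-month replicate 1, and Bmpr2 took 21.7% and 22.6% in the same libraries. The Bmpr1b share was 1.17% ± 0.245 at 2 months and 0.316% ± 0.300 at 18 months. Among antagonists the Grem1 share was 63.7% ± 4.88 and 79.8% ± 6.51 and that of Nog 24.2% ± 2.41 and 12.5% ± 2.63, again without overlap. The Chrdl2 share ranged widely at 18 months, at 16.3%, 4.32% and 2.57%, and overlapped the young libraries. Shares within a role add up to the whole, so the opposite moves of Bmpr1a and Bmpr2, or of Grem1 and Nog, are not independent. Separation of the ages was common: in FPKM 32.8% of all genes tested were lower in every aged library and 35.6% higher. No such background was computed for shares. Shares are descriptions, with no test.

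**Figure D3:**
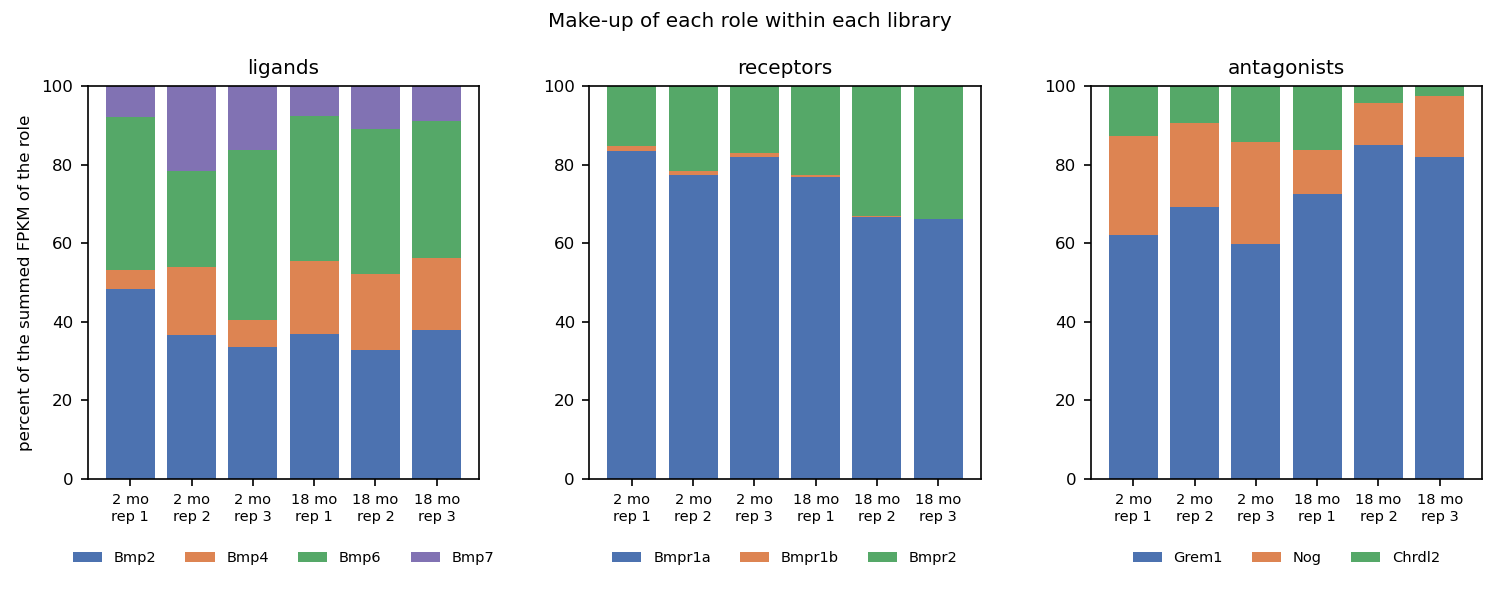
Percent of the summed FPKM of each role taken by each of its members, as stacked bars for the 6 libraries. Bmp4 takes 18.3% to 19.2% of ligand FPKM at 18 months against 4.93% to 17.2% at 2 months, Bmpr2 a larger part of the receptors at 18 months, and Nog a smaller part of the antagonists.

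Within each age 1 library stood apart, replicate 2 at 2 months and replicate 1 at 18 months. Against the mean of 2-month replicates 1 and 3, replicate 2 was higher by 1.23 for Bmp4 and by 0.62 for Bmp7 on the log2 CPM scale. It was lower for the other 8 members on that scale, with differences of −1.39 for Chrdl2, −1.12 for Nog, −1.06 for Bmp6 and −0.08 for Bmpr2 among them. In FPKM, however, Bmpr2 was highest in replicate 2 (5.74), and Bmp2 was lowest in replicate 3 (6.41). Replicate 2 had the highest chondrocyte marker share at its age, 7.07% against 4.57% and 5.64%, and the lowest superficial zone share, 1.48% against 3.57% and 3.86%. It had the highest neutrophil share of the young libraries and held the highest share of 7 osteoclast markers, 0.409% of counts against 0.00659% and 0.0800% in the other young libraries. At 18 months replicate 1 was higher than the mean of the others by 2.52 for Chrdl2 and by 2.12 for Bmpr1b, by 0.45 for Bmpr1a and lower for Bmpr2 (−0.32). It also held the highest chondrocyte marker share of its age, 0.169% against 0.0633% and 0.0646%. The part of these cell type differences in the member values was not tested.

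Across the 6 libraries Bmp4 also followed a course of its own among the members, with Pearson correlations of log2 CPM between −0.03 and 0.57 with the other 9, while the remaining pairs lay at 0.768 or above. These correlations are descriptions over 6 libraries that fall into separate ages. For Bmp4 a single library stood apart, 2-month replicate 2, at 3.10 FPKM against 1.07 to 1.48 in the others. Correlations without that library were not computed. Among the 13899 genes averaging 1 FPKM or more, those closest in pattern to Bmp4 were Spef1 (r = 0.9966), Col4a1 (r = 0.9937), a collagen chain of basement membranes, and Mmp14 (r = 0.9936), a membrane-bound collagenase, and only these 3 exceeded 0.99. With Bmpr1a 746 genes exceeded 0.99, led by Pdxdc1, App and Nr1d1, and with Grem1 600, led by Ghr, Yif1a and Tbc1d4. For Nog the number was 446, led by Ttc19, Kcnj15 and Atf7. Such numbers were not computed for genes outside the members, so they do not set the members apart. The closest genes were Pbdc1 for Bmp2, Gatd1 for Bmp6, Kdm4a for Bmp7, A530064N14Rik for Bmpr1b, Gm15050 for Bmpr2 and Lynx1 for Chrdl2, with r between 0.9978 and 0.9993.

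The wider pathway was described with lists of 48 other genes, chosen with earlier results of these data known. Of the 48, 47 were in the table and 43 were tested. Of these, 26 were lower and 2 higher at 18 months, with a median log2 fold change of −2.03, against backgrounds of 21.3% called lower and 14.9% called higher over all genes. The genes not tested were too low in counts for the filter.

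**Figure D4:**
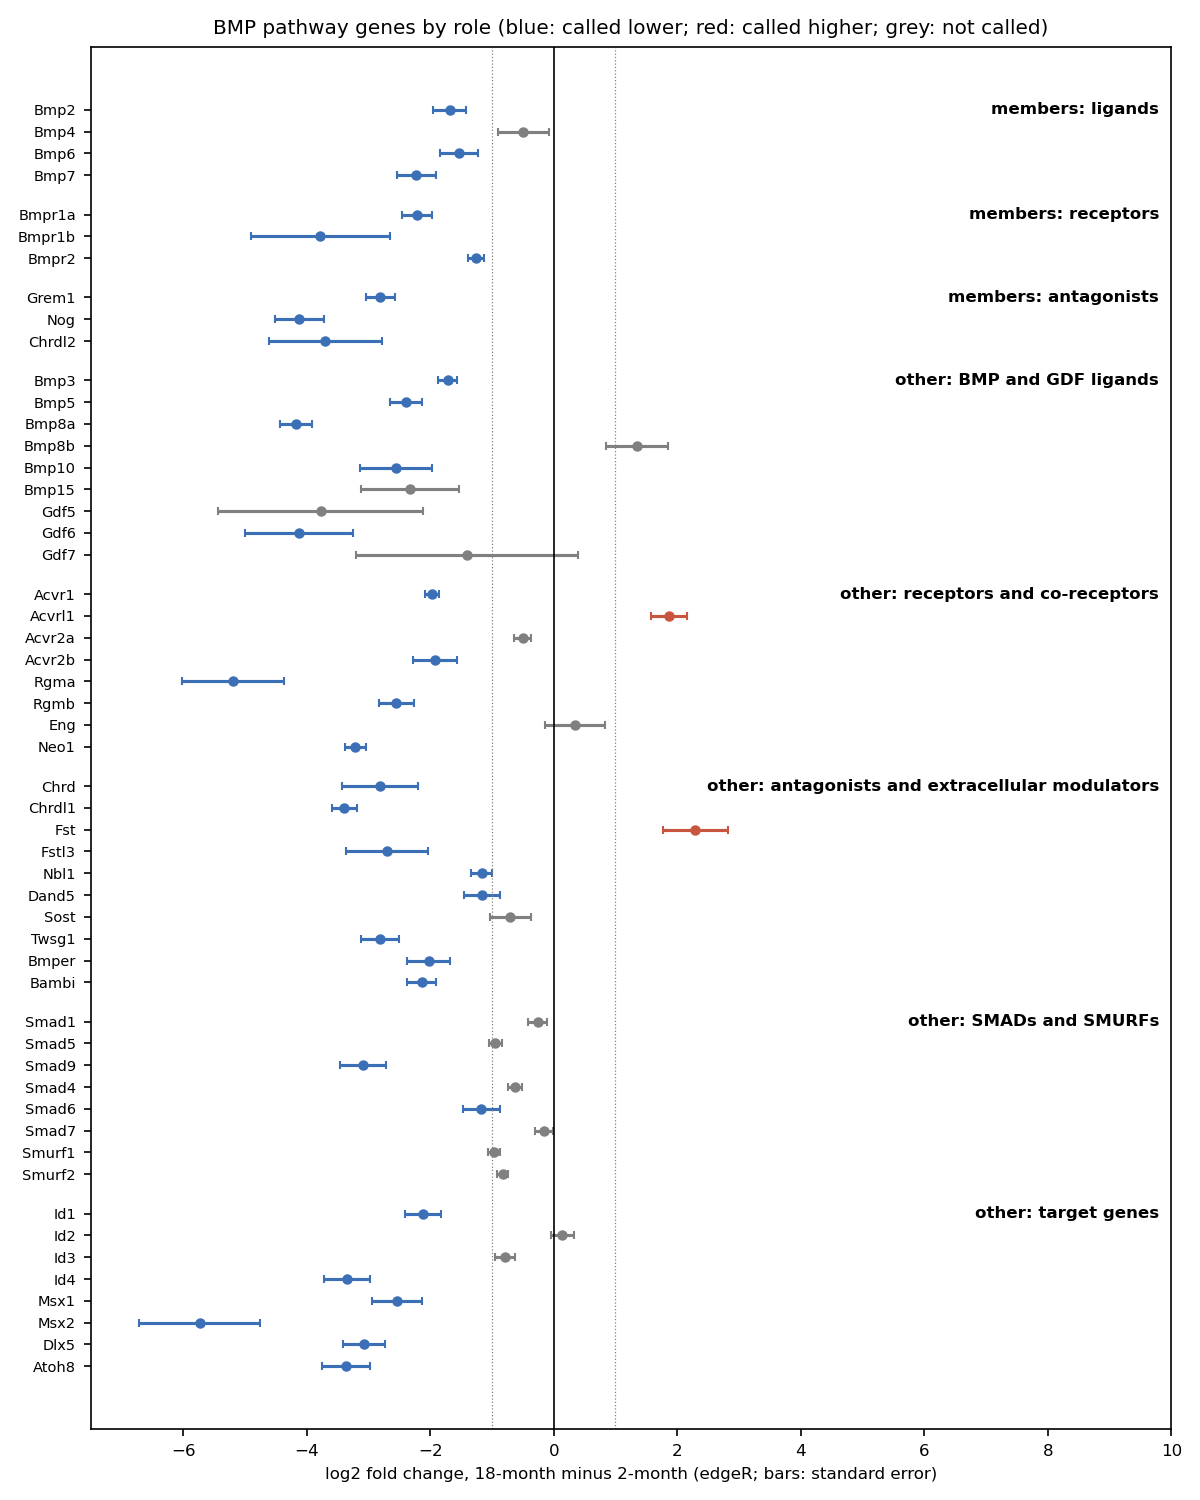
Log2 fold change of 18-month against 2-month cartilage for the 10 members and the 43 other BMP pathway genes tested, with bars for the standard error and dotted lines at the fold limits of 1 and −1; blue genes were called lower, red ones higher and grey ones not called. Most genes lie left of 0, and Acvrl1 and Fst are the called genes to the right.

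Of 9 other BMP and growth differentiation factor ligands, 5 were lower and 0 higher, and 1 was higher at an unadjusted p-value under 0.05, while DESeq2 and limma called 0 higher. Over all genes tested 21.3% were called lower and 14.9% higher. In lists this short, 0 or 1 gene called higher does not set a list apart. Bmp8a, a ligand of the BMP7 subgroup, had mean FPKM values of 31.7 and 1.86 at 2 and 18 months (log2 fold change −4.18, SE 0.26, adjusted p = 0.000749). That made it more abundant than any of the 4 ligand members at 2 months. Bmp5, which shapes skeletal elements such as the ear, had 3.21 and 0.648 FPKM (log2 fold change −2.39, SE 0.26, adjusted p = 0.00176). Bmp3, which opposes osteogenic BMPs, had 8.55 and 2.76 FPKM (log2 fold change −1.71, SE 0.15, adjusted p = 0.00125).

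Of 8 other receptors and co-receptors, 5 were lower and 1 was higher, against 21.3% and 14.9% of all genes tested. The repulsive guidance molecules, membrane-anchored BMP co-receptors, were both lower, Rgma from 8.28 to 0.242 FPKM (log2 fold change −5.19, SE 0.82, adjusted p = 0.00460) and Rgmb from 5.13 to 0.935 FPKM (−2.55, SE 0.28, adjusted p = 0.00184). Neo1, encoding neogenin, which binds these molecules, went from 27.1 to 3.10 FPKM (−3.21, SE 0.17, adjusted p = 0.000706). The type I receptor Acvr1 was lower as well, at 7.84 and 2.11 FPKM (−1.97, SE 0.11, adjusted p = 0.000749). Acvrl1, the type I receptor typical of endothelium, rose from 2.12 to 8.09 FPKM (1.87, SE 0.29, adjusted p = 0.00452). Its endothelial partner Eng, encoding endoglin, had 6.79 and 8.85 FPKM with overlapping ages (0.35, SE 0.49, adjusted p = 0.581), but without 2-month replicate 2 its log2 fold change was 1.15 (adjusted p = 0.00142). Beside these, 8 endothelial markers, led by Pecam1, took 0.0018% to 0.0331% of counts at 2 months, the highest in replicate 2, and 0.0342% to 0.0390% at 18 months. Of the 8, 1 was called higher, against 14.9% of all genes tested, or 7 of 8 without 2-month replicate 2.

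Of 10 other antagonists and extracellular modulators, 8 were lower and 1 was higher, against 21.3% and 14.9% of all genes tested. Twsg1, encoding a secreted protein that modulates chordin, went from 68.6 to 10.4 FPKM (log2 fold change −2.81, SE 0.31, adjusted p = 0.00186), and Chrdl1, the paralog of Chrdl2, from 30.0 to 3.04 FPKM (−3.39, SE 0.20, adjusted p = 0.000749). Bambi, a receptor decoy without kinase, went from 12.8 to 3.10 FPKM (−2.14, SE 0.24, adjusted p = 0.00190). Nbl1, of the DAN family of antagonists, was lower by less, at 16.5 and 7.75 FPKM (−1.17, SE 0.17, adjusted p = 0.00361). The follistatins went opposite ways: Fstl3 fell from 3.46 to 0.570 FPKM (−2.70, SE 0.67, adjusted p = 0.0193), whereas Fst, a trap for activins and some BMPs, rose from 0.379 to 1.94 FPKM (2.29, SE 0.53, adjusted p = 0.0152). Both follistatin calls were lost in some fits with 1 library left out.

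Among the intracellular SMADs and the SMURF ubiquitin ligases, 2 of 8 were lower and 0 higher by edgeR (also 0 at an unadjusted p-value under 0.05, and 0 by DESeq2 and limma), with a median log2 fold change of −0.89. The count of 2 of 8 lower was near the 21.3% called lower over all genes tested and does not set this list apart. Smad9, one of the BMP-activated SMADs, went from 4.12 to 0.516 FPKM (−3.09, SE 0.37, adjusted p = 0.00222), and the inhibitory Smad6 from 3.96 to 1.86 FPKM (−1.17, SE 0.30, adjusted p = 0.0205). The Smad6 call was lost in 4 of the 6 fits with 1 library left out (adjusted p = 0.0514 to 0.0765, without 2-month replicate 1 or 3 or 18-month replicate 2 or 3). Smad5, Smad4, Smurf1 and Smurf2 had log2 fold changes of −0.94, −0.63, −0.96 and −0.83 with adjusted p-values of 0.00186, 0.00589, 0.00161 and 0.00186, and all 4 lay inside the fold limit.

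Of 8 target genes, 6 were lower and 0 higher by edgeR (0 at an unadjusted p-value under 0.05, and 0 by DESeq2 and limma), with a median log2 fold change of −2.81. The shares called over all genes tested were 21.3% lower and 14.9% higher. Id1, an inhibitor of basic helix-loop-helix factors and a direct SMAD target, went from 59.01 to 14.5 FPKM (−2.12, SE 0.29, adjusted p = 0.00314), and Id4 from 32.1 to 3.37 FPKM (−3.35, SE 0.37, adjusted p = 0.00184). Id2, named here after its values were seen, had 29.4 and 34.3 FPKM and did not pass the test (0.14, SE 0.19, adjusted p = 0.571). Id3 had 43.8 and 26.8 FPKM and lay inside the fold limit (−0.78, SE 0.16, adjusted p = 0.0103). The homeobox gene Dlx5, a regulator of osteoblast and chondrocyte differentiation, went from 25.1 to 3.16 FPKM (−3.08, SE 0.34, adjusted p = 0.00186) and Msx1 from 1.79 to 0.325 FPKM (−2.54, SE 0.40, adjusted p = 0.00450). Atoh8 went from 8.13 to 0.841 FPKM (−3.37, SE 0.39, adjusted p = 0.00201). Target genes can be driven by other pathways as well, and pathway activity itself was not measured.

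The remaining marker lists give the cell types beside which these values stand. Over all genes tested edgeR called 21.3% lower and 14.9% higher, and without 2-month replicate 2 it called 5007 of 21489 higher. Of 5 superficial zone markers 4 were lower, at 1.48% to 3.86% of counts at 2 months and 0.168% to 0.864% at 18 months, with Prg4 the most abundant. Of 10 osteoblast and osteocyte markers 4 were lower and 0 higher by edgeR (0 at an unadjusted p-value under 0.05), DESeq2 or limma, at 0.503% to 0.718% and 0.135% to 0.152%, with Ibsp the most abundant, while without 2-month replicate 2 edgeR called 4 lower and 4 higher. Of 7 osteoclast markers, led by Ctsk, edgeR, DESeq2 and limma called 0, with 0 at an unadjusted p-value under 0.05, and at 18 months they took 0.140% to 0.172%. Of 8 synovial and tendon markers, led by Fmod, 4 were lower and 2 higher (5 and 0 without 18-month replicate 1), and they took 0.122% to 0.169% at 2 months and 0.0176% to 0.0247% at 18 months. Erythroid markers, led by Hbb-bs, took 0.0247% to 0.657% and 2.68% to 3.55%, with 3 of 8 called higher by edgeR, 7 by DESeq2 and 8 by limma. Without 2-month replicate 2 edgeR called all 8 erythroid markers higher, and without 18-month replicate 1 it called 0, with 4 at an unadjusted p-value under 0.05. None of the 10 neutrophil markers, led by S100a9, was called by edgeR, with 2 at an unadjusted p-value under 0.05, against 9 by DESeq2, 10 by limma and 10 by edgeR without 2-month replicate 2. Of 8 monocyte and macrophage markers, led by Ly6c2, 2 were higher by edgeR, 4 by DESeq2, 5 by limma and 7 by edgeR without 2-month replicate 2, and they took 0.00455% to 0.0447% at 2 months and 0.137% to 0.140% at 18 months. Of 8 B lymphocyte markers, led by Ighm, 0 were called by edgeR (1 at an unadjusted p-value under 0.05, and 1 by DESeq2 and 2 by limma), but 7 were higher without 2-month replicate 2, at 0.00213% to 0.0485% and 0.1003% to 0.110%. Skeletal muscle markers, led by Mylpf, took 0.00108% to 0.00597% and 0.00061% to 0.000748%, with 4 of 7 tested lower, and adipocyte markers, led by Fabp4, took 0.00106% to 0.00413% and 0.0128% to 0.0172%, with 1 of 3 tested higher (2 without 2-month replicate 2). The part of these cell types in the BMP values was not tested.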

How the data were processed

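Per the labels and the methods of the study, polyadenylated RNA of articular cartilage was made into strand-specific libraries. The authors deposited a raw whole-number count and an FPKM value, scaled by transcript length and library fragments, for every gene in each library. The submitters' processing notes name cutadapt 1.9, HISAT2 2.0.4, UMI-tools, StringTie 1.3.4d, DESeq2 and edgeR, while the genome build, annotation and strand setting of the counting are not given in the sources used here. Of 33865 genes found by identifier in GENCODE M21, 30925 (91.32%) had identical coordinates, among them 7 of the 10 members, so positions are those of the table on GRCm38. All 6 libraries were used, and 0 columns of values per library were left out.

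The tests on counts used edgeR 4.0.16 under R 4.3.3 (TMM, filterByExpr, quasi-likelihood test without a block), with Benjamini-Hochberg adjustment over all genes tested. The SE was derived from the fold change and the F statistic, and 95% intervals use the moderated degrees of freedom. Levels, shares and sums are FPKM, with no test. The alternatives were limma 3.58.1 on log2(FPKM + 0.1), with trend, for genes averaging 0.1 FPKM or more, other pseudocounts (1 and 0.01), TPM rescaling, DESeq2 1.42.0, other filters and scalings, a replicate block and leaving out each library. The test was also run on simulated data in which few genes changed, evenly in both directions. That run cannot check the scaling under a change as wide as the one seen here.

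The members and lists were chosen with earlier results of these data known. Named were all members, up to 6 genes of each other pathway list averaging 1 FPKM or more (called ones first, by size of the fold change, then by abundance), the most abundant gene of each cell type list printed, and the genes closest in pattern to each member by Pearson correlation of TMM log2 CPM (prior count 2). Files were read with the package data.table (1.17.8), and figures drawn with Python 3.11.15 and matplotlib 3.10.9. A gene at 3 or fewer counts in every library of an age was taken as at the floor.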

Additional observations from a re-analysis of the deposited data

How the results depend on the processing

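Between 7 and 9 members were called lower under every alternative run, and 0 higher. The number was 7 with limma at a pseudocount of 1, where Bmpr1b (log2 fold change −0.41) and Bmpr2 (−0.93) came inside the fold limit, and 8 with a mean FPKM of at least 1, where Bmpr1b was not tested. Leaving out 1 library gave 7 to 9. Over the 10 members, 159 of 169 fits with another setting kept direction and side of the threshold, 9 lost the call and 1 changed sign, Bmp4 without 2-month replicate 2, at 0.0675 (with 1 library left out its log2 fold change ran from −0.74 to 0.07). Of the other pathway genes, 19 to 31 were called lower and 2 or 3 higher under other settings, and 22 to 28 lower and 1 to 3 higher with 1 library left out. Fst lost its call without 2-month replicate 3, 18-month replicate 2 or 18-month replicate 3 (adjusted p = 0.0505 to 0.0575), Eng was called higher without 2-month replicate 2, and Fstl3 and Smad6 each lost theirs in some of these fits (adjusted p = 0.0522 to 0.0724 and 0.0514 to 0.0765). Rescaling to TPM moved the median of all genes to −0.33, with 3109 called higher and 5819 lower against 4365 and 4259 in limma without it, and the median of the members was −2.51 there. Over all listed genes of each role, a choice made after seeing the data, the ligand to antagonist ratio was 0.267 at 2 months and 0.173 at 18 months, or 0.368 and 0.382 without Sost, against 0.466 and 1.36 over the members. Same-numbered libraries correlated at 0.0337, 0.044 and −0.024 in their deviations from the age mean. With 3 libraries an age that differ in cell type markers, these values cannot decide whether replicate numbers pair the samples. With the replicate block 8 members (not Bmpr1b, −4.27, adjusted p = 0.0645) and 24 other pathway genes were lower and 2 higher, and over all genes 2523 were called higher and 3509 lower, against 3047 and 4354. With 3 libraries an age, FPKM of genes such as Bmpr1b rests on few counts.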
